A study of Cavia porcellus with 6 samples.

Results

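The 10 genes described here are Cdkn1a, Mdm2, Ccng1, Sesn1 and Tp53inp1, textbook targets of the transcription factor p53, the 3 members of the GADD45 family (Gadd45a, Gadd45b and Gadd45g) and the polo-like stress kinase genes Plk2 and Plk3. They were chosen by name, as the lines of the deposited read count table that carry one of these symbols. All 10 were present among the 32193 genes of the table, and all 10 were among the 16348 genes with enough counts to be tested. RNA sequencing was done on the posterior pole of guinea pig sclera, the fibrous wall of the eye, whose resident cells are mostly fibroblasts. The FDM group is 3 right eyes of animals under form deprivation, in which an eye is denied a sharp image so that it becomes myopic, and the NC group is 3 right eyes of control animals, both on day 28 of induction. The sources used here do not give strain, sex or age of the animals or how the eyes were deprived, and neither group is labelled as having received a drug.

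As background, p53 is held at a low level in unstressed cells by Mdm2, a ubiquitin ligase that is itself a p53 target. DNA damage and other stresses release p53 from that control, and its targets then slow the cell cycle, buffer oxidants or lead to cell death. Cdkn1a encodes p21, an inhibitor of cyclin-dependent kinases. The GADD45 proteins bind PCNA and the kinase MAP3K4, which activates p38 and JNK signalling, and their genes also respond to cytokines and other stresses without p53. The polo-like kinases encoded by Plk2 and Plk3 are induced by serum and by stress, in part through p53.

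The libraries held 12048216 to 16181865 counts in FDM and 10377397 to 17534982 in NC. The libraries numbered 1 were the poorest, with 12783 genes detected in FDM 1 and 14416 in NC 1, while the remaining 4 detected 17689 to 20591. Mdm2 is 1 of 223 genes that had no count in FDM 1 despite a mean above 300 counts, and NC 1 lacked 96 such genes, of 8061 in all. The 11 scleral fibroblast markers checked had counts in all 6 libraries, with sums between 18210 and 62314 CPM in FDM libraries and between 8966 and 59197 CPM in those of NC. Skeletal muscle markers (11 in the table) summed to between 10849 and 57946 CPM in FDM libraries and between 124.0 and 29988 CPM in those of NC, with 2 of them at 0 in NC 1. Photoreceptor markers (12 in the table) summed to between 193.0 and 11362 CPM in FDM libraries and between 519.6 and 30646 CPM in those of NC, with 4 of them at 0 in FDM 1. The levels of these markers thus differed widely between libraries of a group, and their part in the values below was not tested. In tissue samples of this kind, fewer cells of a type and less RNA per cell cannot be told apart.

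Setting FDM against NC shows whether these genes differed in the sclera after form deprivation. Cdkn1a, Gadd45b and Gadd45g were higher in FDM, at 2.71, 5.96 and 3.16 times NC in the fitted model, while Sesn1 was at 0.615 times NC. The other 6 genes lay between 0.971 and 1.87 times NC. None of the 10 passed edgeR's quasi-likelihood test over all genes, in which 0 of 16348 genes (0%) had an adjusted p below 0.05, and the adjusted p was 0.999999 for each of the 10. An unadjusted p below 0.05 in edgeR's test was reached by 3 of the 10 genes, all higher in FDM. Over all genes, 0.661% reached it in that direction and 0.294% in the other. The excess was not particular to the 10 genes. Of the lists described below, 11 of 24 immediate early genes and 8 of 20 heat shock genes reached that level. All of these were higher in FDM. DESeq2 gave an adjusted p to 8 of the 10, not to Plk3 and Tp53inp1, and called 0 of those 8, against 9 of the 8088 genes to which it gave one (0.111%). Limma-voom called 0 of the 10 and 0 of all genes. Both of these tools also gave 3 of the 10 genes an unadjusted p below 0.05, where over all genes edgeR gave 156, DESeq2 281 and limma-voom 168. The genes were chosen with earlier results of these data known, Cdkn1a among them, so these shares describe the 10 genes and are not independent evidence.

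In all, 8 of the 10 log2 fold changes were positive, against 51.2% of all genes tested, and their median was 0.59, against 0.02 for all genes. The median was 0.32 without FDM 3, 0.35 without NC 2 and 1.32 without NC 3. The lowest FDM library exceeded the highest NC library for 2 genes, Cdkn1a and Gadd45g, which is 20% of the 10 against 2.73% of all genes tested. It also did so for 6 of 24 immediate early genes and 4 of 20 heat shock genes, so this too was not particular to the 10. For Sesn1 all FDM libraries lay below all NC libraries, as they did for 2.81% of all genes. The groups of Cdkn1a, Gadd45g and Sesn1 did not overlap either when counts were scaled by library total alone. For that scaling the share of all genes was not computed. For the other 7 of the 10 genes the groups overlapped. Permuting 3 against 3 libraries exactly allows no two-sided p below 0.1, and this exact test gave 0.1 for Cdkn1a, Gadd45g and Sesn1.

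**Figure D1:**
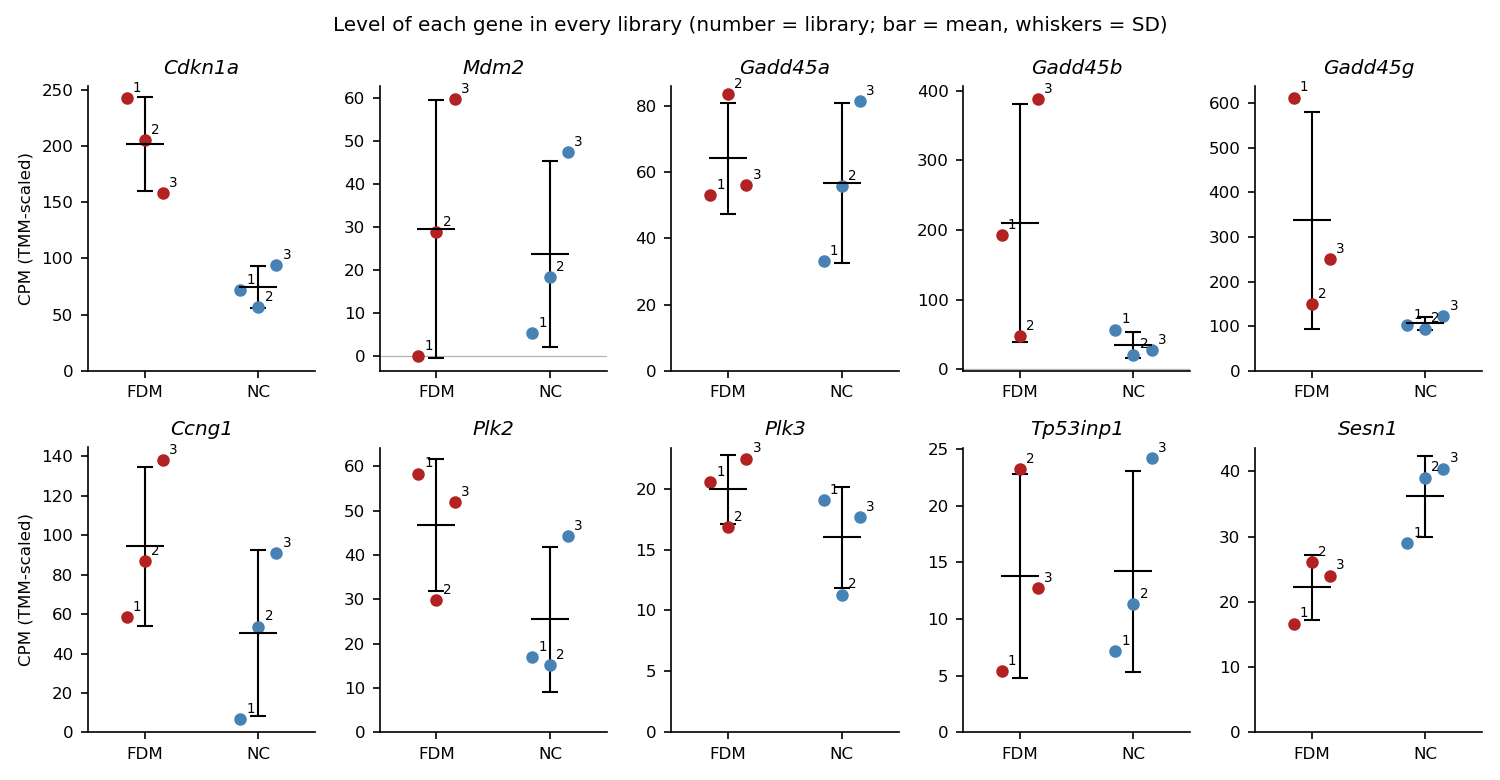
Level of each of the 10 genes in every library, in CPM (counts scaled to a common library size, after TMM), FDM left of NC; numbers mark the library, bars the mean and whiskers the SD over 3 libraries. The FDM points of Cdkn1a, which start at 158.2 CPM, all lie above the NC points, which end at 94.3 CPM, and those of Sesn1 all lie below NC.

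Cdkn1a, whose product p21 halts the cell cycle in response to p53 and to other signals, had 242.2, 204.9 and 158.2 CPM in FDM 1, 2 and 3, against 71.9, 57.0 and 94.3 CPM in NC 1, 2 and 3. The lowest FDM library was well above the highest NC library, and both groups were tight, with a ratio of highest to lowest library of 1.53 in FDM and 1.65 in NC. The means were 201.8 ± 42.1 CPM in FDM and 74.4 ± 18.8 CPM in NC (SD, n = 3 each). The log2 fold change was 1.44 ± 0.40 (SE), with an unadjusted p of 0.00585 in edgeR's test, the 12th smallest of all genes, and an adjusted p of 0.757 in DESeq2. Leaving out 1 library at a time gave values from 1.25 to 1.57. Without both libraries numbered 1, an alternative chosen after seeing the data, it was 1.18, with an unadjusted p of 0.0521 in edgeR's test. With total-count scaling, which moved the median of all genes to -0.23, it was also 1.18. The fitted coefficient of variation between libraries was 0.439 for Cdkn1a, against 0.933 as the common value of all genes.

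The order of the FDM libraries for Cdkn1a was 1, 2, 3 from high to low. Among these 3 the gene was thus lowest where the heat shock and immediate early genes described below were highest. The mean log2 CPM of each of those lists was, however, higher in every FDM library than in every NC library, as Cdkn1a was. Counts can also be set against another gene of the same library, which removes the scaling between libraries. Per count of Gadd45a, a gene chosen for this after its values were seen, Cdkn1a had 4.56, 2.45 and 2.82 counts in FDM 1, 2 and 3, against 2.17, 1.02 and 1.16 counts in NC 1, 2 and 3. The FDM libraries were again all above the NC libraries, which held for 1.28% of all genes tested on this ratio and for no other gene of the 10. Per count of Ccng1 the groups overlapped, at 4.15, 2.36 and 1.15 counts in FDM 1, 2 and 3, against 10.97, 1.06 and 1.04 in NC. Per count of Sesn1 they did not overlap, at 6.58 or more in FDM and 2.47 or less in NC. That outcome was fixed in advance, since all FDM libraries lay above NC for Cdkn1a and below NC for Sesn1.

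Mdm2, which encodes the ubiquitin ligase that marks p53 for degradation, had 0, 28.9 and 59.8 CPM in FDM 1, 2 and 3, against 5.38, 18.4 and 47.5 CPM in NC 1, 2 and 3. The groups overlapped throughout, and the 2 lowest values were those of the libraries numbered 1, which had the fewest genes detected. The count of 0 in FDM 1 allows up to 0.296 CPM, taking 3 counts as the limit and covering counting error only. The means were 29.6 ± 29.9 CPM in FDM and 23.8 ± 21.6 CPM in NC (SD, n = 3 each), and the log2 fold change was 0.31 ± 1.61 (SE). It was -0.80 without FDM 3, -0.16 without NC 1 and 1.19 without NC 3, and the difference of mean log2 CPM was -1.44, with 2 added to the counts.

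Ccng1, the gene of cyclin G1, which recruits a phosphatase to Mdm2, had 58.4, 86.8 and 138.0 CPM in FDM 1, 2 and 3, against 6.56, 53.6 and 90.9 CPM in NC 1, 2 and 3. NC 1 was far below the other 5 libraries, whose groups overlapped. The log2 fold change was 0.90 ± 0.79 (SE), 0.38 without NC 1, 0.44 without FDM 3 and 1.51 without NC 3. Without both libraries numbered 1, an alternative chosen after seeing the data, Ccng1 had 0.57 and Mdm2 0.37.

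Sesn1, which encodes sestrin 1, a stress protein that restrains mTORC1 signalling, had 16.7, 26.1 and 24.0 CPM in FDM 1, 2 and 3, against 29.1, 39.1 and 40.4 CPM in NC 1, 2 and 3. All FDM libraries were below all NC libraries, although FDM 2, at 26.1 CPM, was close to NC 1, at 29.1 CPM. The means were 22.3 ± 4.95 CPM in FDM and 36.2 ± 6.21 CPM in NC (SD, n = 3 each), and the log2 fold change was -0.70 ± 0.47 (SE) with an unadjusted p of 0.170 in edgeR's test. Leaving out 1 library at a time gave values from -0.84 to -0.53. Per count of Gadd45a, Sesn1 had 0.314, 0.312 and 0.429 counts in FDM and 0.876, 0.699 and 0.496 counts in NC, again without overlap, as for 2.8% of all genes tested in that direction. Sesn1 was thus below NC in every FDM library where Cdkn1a was above it.

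Tp53inp1, whose product takes part in p53-dependent cell death and in autophagy, had 5.42, 23.2 and 12.7 CPM in FDM 1, 2 and 3, against 7.14, 11.3 and 24.2 CPM in NC 1, 2 and 3. Here the ranges nearly coincided, and the spread within a group exceeded the difference between the means of 13.8 ± 8.96 CPM in FDM and 14.2 ± 8.88 CPM in NC (SD, n = 3 each). The log2 fold change was -0.04 ± 0.83 (SE), 0.33 without FDM 1, -0.65 without FDM 2, -0.37 without NC 1, -0.22 without NC 2 and 0.48 without NC 3.

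**Figure D2:**
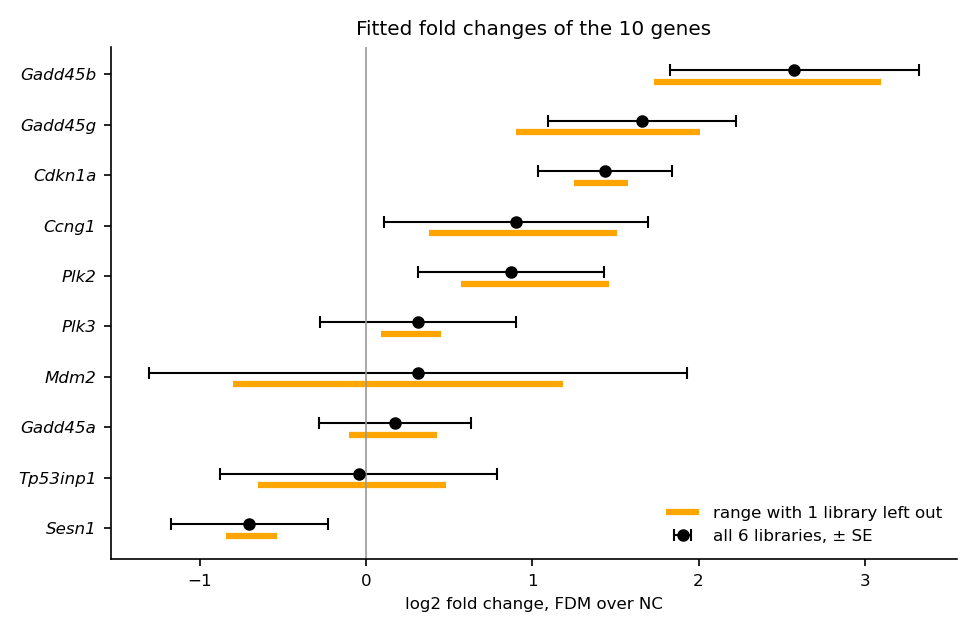
Fitted log2 fold change of each gene, FDM over NC (points, with SE from edgeR), and the range of the same value when 1 of the 6 libraries was left out in turn (orange bars). The orange bars of Gadd45b, Gadd45g, Cdkn1a, Ccng1, Plk2 and Plk3 lie above 0 and that of Sesn1 below 0, while those of Mdm2, Gadd45a and Tp53inp1 cross it.

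The GADD45 genes differed from one another. Gadd45b and Gadd45g were higher in FDM by log2 fold changes of 2.58 and 1.66, while Gadd45a, the member best known as a direct p53 target, had 0.18. Summed over the family, the CPM values were 858.1, 280.9 and 693.9 in FDM 1, 2 and 3, against 192.2, 171.3 and 232.8 in NC 1, 2 and 3. The sums of all FDM libraries were above those of all NC libraries, with FDM 2 the nearest to NC. Of the 3 genes taken singly, only Gadd45g had groups without overlap, and no share over all genes was computed for such sums.

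Gadd45b, which is induced by TGF-beta, NF-kB and inflammatory signals, had 192.7, 47.6 and 388.3 CPM in FDM 1, 2 and 3, against 56.7, 20.9 and 27.9 CPM in NC 1, 2 and 3. FDM 1 and FDM 3 were above every NC library, but FDM 2 was below NC 1, so the groups overlapped. The means were 209.5 ± 171.0 CPM in FDM and 35.2 ± 19.0 CPM in NC (SD, n = 3 each), and the spread in FDM, with an 8.16-fold ratio of highest to lowest library, was close to the difference between the means. Its log2 fold change of 2.58 ± 0.75 (SE) was the largest of the 10, with an unadjusted p of 0.00733 in edgeR's test, the 14th smallest of all genes, and an adjusted p of 0.437 in DESeq2. Without FDM 3 it was 1.73 and without NC 1 3.10.

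Gadd45g, also a cytokine-responsive member, had 612.3, 149.8 and 249.6 CPM in FDM 1, 2 and 3, against 102.2, 94.5 and 123.4 CPM in NC 1, 2 and 3. The NC libraries were tight, with a highest to lowest ratio of 1.31, and the FDM libraries spread over a 4.09-fold range above them. Before TMM scaling the lowest FDM and the highest NC library were close, at 138.1 and 135.0 CPM. The means were 337.2 ± 243.4 CPM in FDM and 106.7 ± 14.9 CPM in NC (SD, n = 3 each), and the log2 fold change was 1.66 ± 0.56 (SE) with an unadjusted p of 0.0161 in edgeR's test. Without FDM 1, the highest library, it was 0.90, and without both libraries numbered 1 it was 0.80.

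Gadd45a had 53.1, 83.5 and 56.0 CPM in FDM 1, 2 and 3, against 33.2, 55.9 and 81.5 CPM in NC 1, 2 and 3. The groups overlapped widely, at means of 64.2 ± 16.8 CPM in FDM and 56.8 ± 24.2 CPM in NC (SD, n = 3 each). Its log2 fold change of 0.18 ± 0.45 (SE) was -0.06 without FDM 2, -0.10 without NC 1, 0.43 without NC 3 and -0.09 with total-count scaling, which moved the median of all genes to -0.23.

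The make-up of the family therefore differed between libraries, also within FDM. As a share of the counts of the 3 genes, Gadd45b made up 22.5%, 16.9% and 56.0% in FDM 1, 2 and 3, against 29.5%, 12.2% and 12.0% in NC 1, 2 and 3. Gadd45g made up 71.3%, 53.3% and 36.0% in FDM 1, 2 and 3, against 53.2% and 55.2% in NC 1 and NC 2 and 2368 of 4468 counts in NC 3. The rest, from Gadd45a, was 6.19%, 29.7% and 8.07% in FDM, against 17.3%, 32.6% and 35.0% in NC. FDM 2 was close to NC 2 in make-up, while of the 6 libraries FDM 1 had the highest share of Gadd45g and FDM 3 the highest share of Gadd45b. The 95% Wilson intervals of these shares had half-widths of at most 2.20 percentage points and cover counting error only. Transcripts of different length give different counts, so a share is compared here only between libraries and not between genes.

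**Figure D3:**
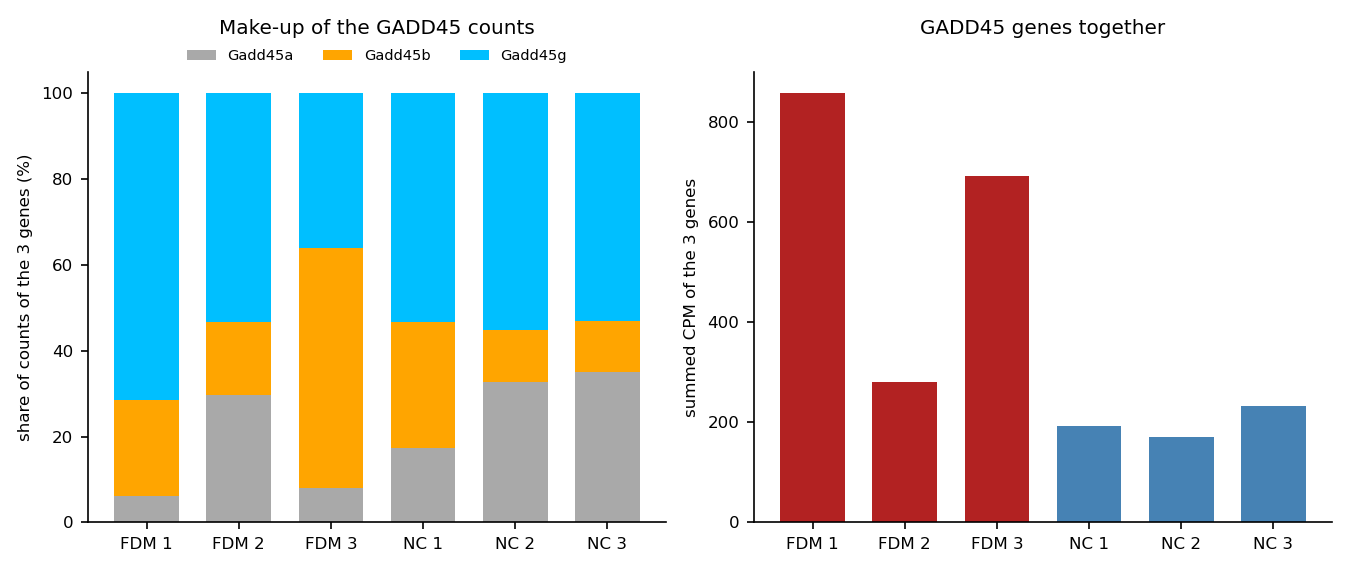
Left, share of each GADD45 gene in the counts of the 3 genes, in percent, per library; right, their summed CPM per library, in red for FDM and blue for NC. The summed bars are at 858.1, 280.9 and 693.9 CPM in FDM and at 171.3 to 232.8 CPM in NC, and the Gadd45b share is largest in FDM 3, at 56.0%.

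For both polo-like kinase genes the groups overlapped. Plk2, which is induced by p53 and by serum, had 58.4, 29.9 and 51.8 CPM in FDM 1, 2 and 3, against 17.0, 15.1 and 44.3 CPM in NC 1, 2 and 3. FDM 1 and FDM 3 were above every NC library and FDM 2 lay between NC 1 and NC 3. The log2 fold change was 0.87 ± 0.56 (SE), with an unadjusted p of 0.154 in edgeR's test, 0.57 without NC 2, 1.46 without NC 3 and 0.41 without both libraries numbered 1. Plk3, a kinase gene of the early stress response, had 20.5, 16.8 and 22.5 CPM in FDM 1, 2 and 3, against 19.1, 11.3 and 17.7 CPM in NC 1, 2 and 3. FDM 2 lay within the NC range and FDM 1 and FDM 3 lay above it, and the log2 fold change was 0.32 ± 0.59 (SE), 0.17 without FDM 3 and 0.09 without NC 2. Plk3 had the narrowest range in FDM of the 10 genes, with a highest to lowest ratio of 1.34.

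The libraries with the lowest values were not the same for all genes. NC 2 held the lowest CPM of 5 genes (Cdkn1a, Gadd45b, Gadd45g, Plk2 and Plk3), FDM 1 that of 3 (Mdm2, Tp53inp1 and Sesn1) and NC 1 that of 2 (Gadd45a and Ccng1). Over all genes tested, FDM 1 held the lowest value of 42.3%, NC 1 of 19.6% and NC 2 of 11.4%. FDM 3 held the highest value of 4 of the 10 genes, FDM 1 of 3, NC 3 of 2 and FDM 2 of 1. Over all genes tested, the highest value was in FDM 3 for 21.7%, in FDM 1 for 19.7%, in NC 3 for 12.4% and in FDM 2 for 14.2%.

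Other p53 targets were spread on both sides of 0. Of 30 further targets listed, 24 were tested, 0 were called in either direction by edgeR and 14 were positive, with a median log2 fold change of 0.31. That median was 0.09, 0.06 and 0.13 without FDM 1, 2 and 3, 0.00398 and 0.10 without NC 1 and 2, and -0.02 without both libraries numbered 1. The 4 of smallest p were Btg2, Ppm1d, Sfn and Bbc3. Btg2, an antiproliferative gene that is also an immediate early gene, had 136.8, 55.2 and 710.1 CPM in FDM 1, 2 and 3, against 52.0, 72.4 and 54.8 CPM in NC 1, 2 and 3. FDM 3 stood far above the rest and FDM 2 within the NC range, and the log2 fold change of 2.33 ± 0.85 (SE) was 0.61 without FDM 3. Bbc3, which encodes the pro-apoptotic protein PUMA, had 14.2, 23.7 and 13.9 CPM in FDM, against 2.74, 11.6 and 11.8 CPM in NC, without overlap and with a log2 fold change of 0.98 ± 0.83 (SE), 0.56 without NC 1. It was the only 1 of the 24 with all FDM libraries above all NC libraries, which held for 2.73% of all genes tested. Ppm1d, a phosphatase gene that ends the p53 response, had 1.14 ± 0.85 (SE), which was 0.08 without FDM 3, 0.75 without NC 1 and 1.79 without NC 2. Sfn, the 14-3-3 sigma gene, had -2.36 ± 1.95 (SE) with at most 2.45 CPM in FDM libraries and 1.09 to 13.5 CPM in those of NC, and -1.25 without NC 1.

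Of listed regulators and relatives of p53, 14 of 16 were tested, with 7 positive, a median of -0.03 (-0.48 without FDM 3 to 0.02 without FDM 1) and 0 called. The co-activator gene Crebbp had 0.93 ± 0.54 (SE), and 0.09 without FDM 3. Mdm4, the partner of Mdm2, had -0.32 ± 0.43 (SE), which was -0.08 without FDM 1 and -0.76 without FDM 3. The kinase gene Atm had -1.40 ± 1.59 (SE) on 0, 1.37 and 20.0 CPM in FDM 1, 2 and 3, against 31.3, 15.3 and 9.95 CPM in NC 1, 2 and 3. That value was -0.81, -0.91 and -4.80 without FDM 1, 2 and 3, -0.83 without NC 1 and -3.61 in limma-voom.

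Family relatives of the 10 genes (12 of 13 listed tested) had a median of 0.23, with 7 positive and 0 called, and the median was -0.60 without FDM 3, -0.18 without NC 1 and 0.51 without FDM 1. The inhibitor gene Cdkn1c, a relative of Cdkn1a, had 102.6, 80.0 and 361.8 CPM in FDM 1, 2 and 3, against 116.8, 40.9 and 80.4 CPM in NC 1, 2 and 3. Its level in FDM 3 stood apart, and its log2 fold change of 1.19 ± 0.65 (SE) was 0.16 without that library. Cdkn2d, a gene of another inhibitor family, had 0.49 ± 0.62 (SE), which was 0.26 without FDM 1, 0.14 without NC 1 and -0.17 without both libraries numbered 1. The cyclin G2 gene Ccng2 had -0.70 ± 1.01 (SE), which was -0.25 without FDM 1 and -1.21 without FDM 3. The polo-like relative Plk5 had 2.17 ± 1.96 (SE) on 0 to 8.67 CPM, which was 3.59 without NC 3. Among partners of p21 and GADD45, 14 of 15 listed were tested, with 7 positive, a median of -0.03 (-0.47 without FDM 3 and -0.36 without NC 2) and 0 called. Mapk8, which encodes JNK1, had 38.1, 31.2 and 35.3 CPM in FDM, against 42.8, 60.2 and 44.5 CPM in NC, with a log2 fold change of -0.50 ± 0.41 (SE). All FDM libraries were below all NC libraries for this 1 of the 14 partners, against 2.81% of all genes tested. Pcna, the gene of the replication clamp, had -0.64 ± 0.67 (SE), which was -0.28 without FDM 1. Map3k4, a kinase gene, had -0.68 ± 0.87 (SE), which was -0.16 without FDM 1 and -2.003 without FDM 3. The cyclin E1 gene Ccne1 had -1.81 ± 2.58 (SE) on at most 2.30 CPM in any library, and -7.38 without FDM 3. Proliferation genes, 22 of 25 tested, had a median of 0.07 (-0.48 without FDM 2 and 0.55 without NC 3) with 12 positive and 0 called, and 11 of the 25 had no count in FDM 1 and 11 none in NC 1.

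**Figure D4:**
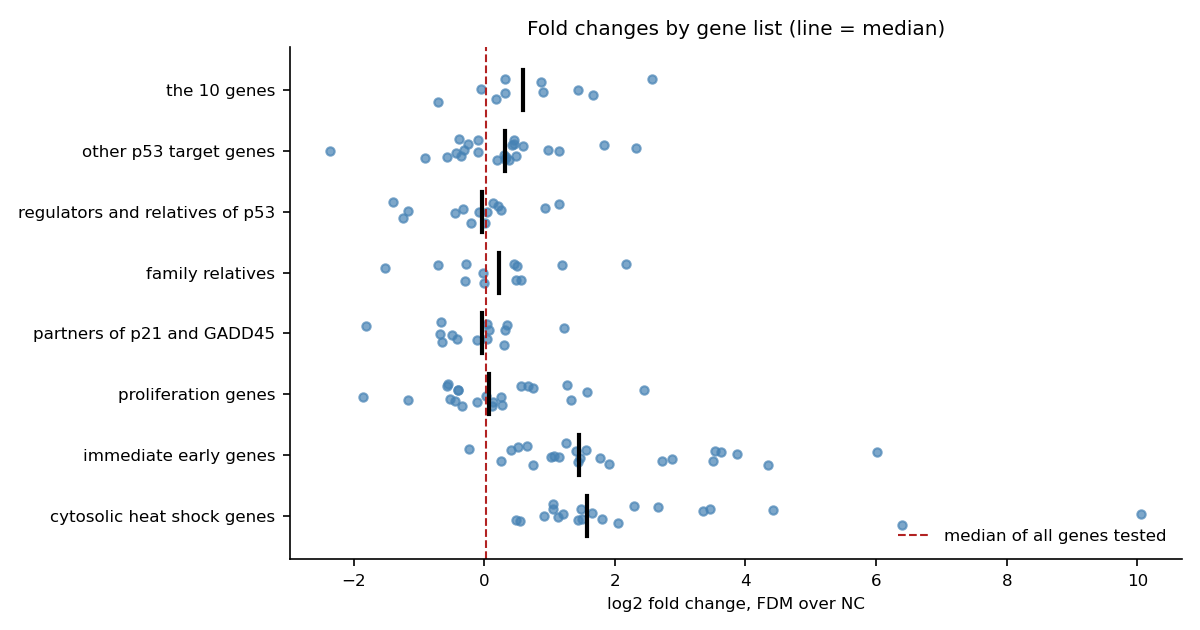
Log2 fold change, FDM over NC, of each tested gene (points) by list, with the list's median (black line) and the median of all genes tested (red dashed line, at 0.02). The 10 genes have a median of 0.59, the other p53 lists lie between -0.03 and 0.31, and the immediate early and heat shock lists lie at 1.45 and 1.58.

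Immediate early and cytosolic heat shock genes were higher in FDM, like part of the set, but shared the order of libraries only partly. The mean log2 CPM of the 24 immediate early genes was 6.32, 5.02 and 7.17 in FDM 1, 2 and 3, against 4.30, 4.09 and 4.88 in NC 1, 2 and 3, and 23 of 24 had a positive log2 fold change with 0 called. For the 20 heat shock genes tested it was 8.14, 7.76 and 10.5 in FDM 1, 2 and 3, against 6.46, 6.76 and 7.49 in NC 1, 2 and 3, with 20 positive and 0 called. Both list means were higher in every FDM library than in every NC library, as Cdkn1a and Gadd45g were and Gadd45b was not. Gadd45b was highest in FDM 3 and second in FDM 1, as both lists were. Gadd45g and Plk2 were instead highest in FDM 1, and Cdkn1a was lowest of FDM in FDM 3. Among the NC libraries both list means were highest in NC 3, as Cdkn1a, Gadd45g and Plk2 were, while Gadd45b was highest in NC 1. Without FDM 3 the medians of the lists were 0.89 and 0.75, against 1.45 and 1.58 with all libraries, while Cdkn1a had 1.53 and Gadd45g 1.78. The part of these lists in the values of the 10 genes was not tested.

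**Figure D5:**
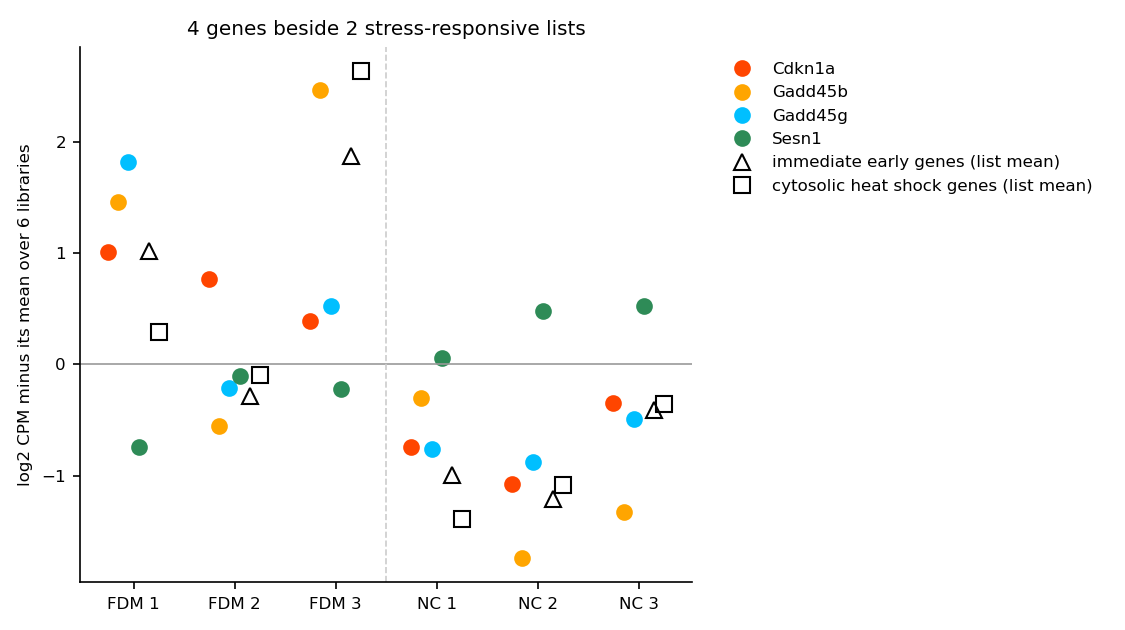
Log2 CPM of 4 genes (filled circles) and the mean of 2 lists (open symbols) in each library, each minus its own mean over the 6 libraries. Gadd45b is 2.47 above its mean in FDM 3, as the list means are at their highest there, while Cdkn1a is 1.01, 0.77 and 0.39 above its mean in FDM 1, 2 and 3 and Sesn1 is below its mean in all 3.

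Within the set, the pair of most alike patterns was Gadd45a and Tp53inp1, whose log2 CPM, each centred on its mean over the 6 libraries, differed by 0.36 on average. Cdkn1a was most like Gadd45g and Plk2, at 0.38 each. Among 13006 genes with a symbol and an average log2 CPM of at least 1, the pattern nearest to Cdkn1a was that of Hes6, a gene of the HES family of transcription factors, at a mean difference of 0.08. Hes6 had 18.4, 16.2 and 12.2 CPM in FDM 1, 2 and 3, against 5.67, 4.90 and 6.36 CPM in NC 1, 2 and 3. Next came Nln, a peptidase gene, at 0.21, Xbp1, a transcription factor gene of the unfolded protein response, at 0.21, Socs1, a suppressor of cytokine signalling, at 0.22 and Sertad1, whose product binds CDK4, at 0.22. The nearest genes to Gadd45b were farther off: Alox5ap, of leukotriene synthesis, at 0.39, Zfp36, which encodes an mRNA-destabilising protein, at 0.40, Errfi1, an inhibitor of the EGF receptor, at 0.41, Duoxa1, a maturation factor of a dual oxidase, at 0.43 and Gabre, a GABA receptor subunit, at 0.44. Likeness over 6 libraries of 2 groups is a description, and the same libraries were used for every gene.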

How the data were processed

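The authors deposited raw read counts per gene, in whole numbers, as a single table with 1 column per library. The submitters' processing notes name the tools Trimmomatic, STAR and HTSeq. The genome build, annotation, counting mode, strand setting and tool versions are not stated there or in the labels. Overlapping and antisense genes can therefore not be told apart, and no coordinates are printed. Per the labels' protocols, Trizol was used for extraction and a NEBNext Ultra kit for library construction.

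Libraries were grouped and numbered by their titles; each is described as a right eye, so each was taken as a separate animal. In R 4.3.3, genes were filtered with filterByExpr of edgeR 4.0.16 at its defaults, scaled by TMM (factors 0.843 to 1.20) and compared by the quasi-likelihood test (robust, no covariates), with p-values adjusted by Benjamini-Hochberg over all 16348 genes and called at 0.05. CPM values use TMM library sizes, except sums over marker lists, which use total counts. The SE was derived from the log2 fold change and its F statistic. Log2 CPM has a prior count of 2. Alternatives were DESeq2 1.42.0, limma-voom (limma 3.58.1), other scalings and filters, the replicate number as a block and each library left out. The code of the fit was run on simulated counts less variable than these libraries, which does not show its power here. Figures used matplotlib 3.10.9.

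The 10 genes and the 17 gene lists (251 entries, 236 in the table) were chosen with earlier results of these data known. Named genes are all 10, the 4 of smallest p in each of 4 lists of p53 targets, regulators, relatives and partners, and the 5 nearest in pattern to Cdkn1a and to the other gene of smallest p. Promoter motifs, planned as a description, were not analysed here. One gene of the lists is not reported here.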

Additional observations from a re-analysis of the deposited data

How the results depend on the processing

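None of the 10 genes, and none of the other genes of the 4 p53-related lists that an alternative tested, was called under the 15 alternatives, 14 of them planned and 1, without both libraries numbered 1, chosen after seeing the data. DESeq2 gave no adjusted p to 2 of the 10 genes and to 28 of 62 others of those lists, which it could therefore not call. Over all genes edgeR called 0 under each, limma-voom 0 and DESeq2 9. Of 150 recomputed log2 fold changes of the 10 genes, 140 kept their sign and 10 did not, and those 10 were all in Mdm2, Gadd45a and Tp53inp1. Mdm2 had -1.54 in limma-voom and -0.87 with the replicate number as a block, Gadd45a had -0.0947 with total-count scaling and -0.0628 without both libraries numbered 1, and the cause was not tested. With any single library left out, Mdm2 ran from -0.80 to 1.19, Gadd45a from -0.10 to 0.43 and Tp53inp1 from -0.65 to 0.48. The titles give same-numbered libraries only a shared number, although both libraries numbered 1 had the fewest genes detected. Deviations of same-numbered libraries from their group means correlated across genes at 0.10, 0.03 and -0.15. Those of differently numbered libraries correlated at -0.22 to 0.26, so these values do not settle whether the numbers mark pairs. The replicate block left 120 genes at an unadjusted p below 0.05, against 156 without it. That number was 281 in DESeq2, 367 without a filter on low counts and 84 to 536 with a library left out. The genes of the 10 at that level numbered 3, 2 without FDM 1, 4 without NC 3 and 1 without both libraries numbered 1. Scaling by library total moved the median of all genes from 0.02 to -0.23, and relative to it Cdkn1a, Gadd45b, Gadd45g and Sesn1 had 1.41, 2.63, 1.59 and -0.73. With a prior count of 0.5 in place of 2 the difference of mean log2 CPM of Mdm2 was -2.10 in place of -1.44, and that of Cdkn1a was 1.45 with either. Genes with few counts in the libraries numbered 1 are limited by the genes those libraries lack.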

Other observations

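Other lists checked beside the 10 genes had no gene past edgeR's test over all genes. Glucocorticoid-responsive genes, such as those for FKBP5 and GILZ, were positive for 2 of 9 tested, with a median log2 fold change of -0.37, which was -0.64 without NC 2 and -0.06 without NC 3. Scleral fibroblast markers were positive for 7 of 11 with a median of 0.46, which was 0.25 without FDM 2, -0.40 without FDM 3, 0.21 without NC 3, -0.04 without NC 2 and 1.14 without NC 1. Chondrocyte markers were positive for 2 of 8 with a median of -0.66, which was -1.25 without FDM 3, -0.40 without NC 2 and -1.02 without NC 3. Skeletal muscle markers were positive for 11 of 11, with a median of 1.91 that ran from 1.33 without NC 1 to 2.38 without NC 3. Without both libraries numbered 1 the skeletal muscle median was 0.81. Photoreceptor markers were positive for 0 of 12 with a median of -1.53, which was -0.97 without FDM 1, -4.11 without FDM 3 and -0.26 without NC 2. Pigment epithelium and melanocyte markers were positive for 6 of 11, with a median of 0.18 that ran from -1.82 without FDM 3 to 0.63 without FDM 2. Macrophage markers were positive for 8 of 11, with a median of 0.13 that ran from -0.31 without FDM 2 to 0.86 without NC 1. Endothelial markers were positive for 7 of 9, with a median of 0.24 that ran from -0.15 without NC 2 to 0.64 without NC 3. Blood cell markers were positive for 2 of 5, with a median of -0.46 that was -0.08 without NC 1 and 0.44 without both libraries numbered 1.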
